A study of Rattus norvegicus with 20 samples.

Results

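The circadian clock genes of the rat vocal fold were examined animal by animal in 20 arrays. The 10 genes listed were Nr1d1, Nr1d2, Dbp, Tef, Per1, Per2, Per3, Arntl, Ciart and Bhlhe41, and a gene was included where a probe set carried its symbol in the platform annotation. Of these, 9 were measured, among 15049 probe sets with a single gene name and 24871 probe sets in all. Bhlhe41 was not analysed here, and Arntl, the gene for BMAL1, was read under its current symbol Bmal1. The list was chosen on measured values of these arrays. The levels, the group differences and the covariation of the 9 genes are therefore described here without a test. Tests are given only for genes outside the list.

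All animals were adult male Sprague-Dawley rats kept under 12-h light and 12-h dark. The methods give the age of the rats at injury and not at death. Age at death may therefore differ between groups, and its part was not tested. The control group held 5 uninjured rats, and groups of 5 rats each were killed at 1, 4 and 8 weeks after the lamina propria, the connective tissue layer of the vocal fold, had been separated and removed from the thyroarytenoid muscle. The methods allow the injury to have been unilateral or bilateral, while both folds were dissected, so an injured sample may include an uninjured fold. Each rat gave 1 array. The hour of death of a rat is not given in the sources used here, and its part in any value below was not tested.

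The clock is a feedback loop that runs in nearly every mammalian cell. CLOCK or its relative NPAS2 pairs with BMAL1 and switches on genes that carry an E-box in their promoters, among them the Period and Cryptochrome genes, whose proteins then shut the pair off. The same pair switches on Nr1d1 and Nr1d2, which encode REV-ERB alpha and beta, and these repress Arntl through a short element that they share with the activating ROR receptors. Dbp and Tef are output activators that bind D-boxes, where NFIL3 competes with them as a repressor. In rodent tissues the targets of the pair and Arntl itself therefore peak at opposite times of day.

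The promoter stretches that carry these elements are shown because the elements named above can be read in them, for the 5 measured genes that carry at least 1 in the window searched. The sequences are from RefSeq on the GRCr8 assembly, and all 10 listed genes had an entry. The 250 bases before each annotated start were searched on both strands for the E-box CACGTG, the E-prime box CACGTT, the D-box TTATGTAA or TTACGTAA, and the ROR element ANTNGGTCA. The motifs are in capitals and each line runs 5′ to 3′ on the strand of its gene.
Ciart (chr2:186112247-186112369, minus strand, 3 E-boxes): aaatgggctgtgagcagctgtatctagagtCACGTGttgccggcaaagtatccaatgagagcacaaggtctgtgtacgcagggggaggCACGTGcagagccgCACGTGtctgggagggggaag
Per2 (chr9:99497020-99497215, minus strand, a D-box and an E-prime box): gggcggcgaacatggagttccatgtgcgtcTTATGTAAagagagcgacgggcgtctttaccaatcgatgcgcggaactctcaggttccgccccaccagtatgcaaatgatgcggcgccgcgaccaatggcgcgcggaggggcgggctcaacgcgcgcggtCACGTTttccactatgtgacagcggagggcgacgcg
Nr1d1, first annotated start (chr10:84231951-84232016, minus strand, an E-prime box on the opposite strand): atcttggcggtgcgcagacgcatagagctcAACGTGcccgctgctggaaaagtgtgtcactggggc
Nr1d1, second annotated start (chr10:84229610-84229675, minus strand, an E-box): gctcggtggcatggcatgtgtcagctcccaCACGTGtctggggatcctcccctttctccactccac
Tef (chr7:115206599-115206664, plus strand, an E-box): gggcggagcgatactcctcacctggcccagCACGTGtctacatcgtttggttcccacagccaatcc
Arntl (chr1:176766280-176766327, plus strand, a ROR element): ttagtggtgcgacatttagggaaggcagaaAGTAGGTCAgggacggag

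An E-box lay in the window of 4 of the 10 listed genes, the fourth being Bhlhe41, and in 5.59% of 33469 promoters of the same length. The E-prime box was in 2 listed genes and in 4.07% of promoters, the D-box in 1 and in 0.932%, and the ROR element in 1, Arntl, and in 2.05%. A match is a description of these letters and does not show that a factor binds there. Per1, Per3, Dbp and Nr1d2 held none of the 4 motifs in this window.

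The arrays themselves differed in ways that touch every comparison with control. The hybridization control probe sets, which read material added to each array, averaged 9.25 ± 0.30 log2 units in the controls (SD, n = 5) and lay between 9.94 and 10.44 in the 15 injured arrays, with no overlap. A list of 4 pituitary hormone genes averaged from 6.38 to 8.53 on the control arrays and at most 4.64 on any injured array, and 3 of its 4 genes were lower in each injured group than in control (limma, adjusted p of 0.013 or less). Control replicate 1 had the highest pituitary mean, 8.53. Control replicate 3 had the lowest array median, 4.58, against 4.83 to 4.94 for the other 19. Between any 2 arrays of a group the correlation over all probe sets was 0.949 to 0.986. The labelled tissue was checked with marker lists, and squamous epithelial genes averaged 8.89 to 9.90 and skeletal muscle genes 7.39 to 10.79 on an array, while 2 genes of ciliated cells averaged 3.15 to 4.67. Single background probe sets reached 7.14 on an array. Low signals therefore cannot be told from background, and no fold on the linear scale is given for them. They include those of Nr1d1 and Nr1d2 in the 4 lowest rats below and those of Per3, Ciart, Tef, Cry1, Nfil3 and Arntl. In bulk RNA, fewer cells of a type and less RNA per cell cannot be told apart.

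Nr1d1 varied most. Its product, REV-ERB alpha, represses Arntl, and the gene is itself a target of the activator pair. Its log2 RMA signal in control replicates 1 to 5 was 8.35, 8.87, 7.86, 9.22 and 9.17, in the 1-week rats 7.84, 8.12, 4.73, 7.56 and 7.65, in the 4-week rats 5.04, 4.85, 4.84, 8.23 and 7.68, and in the 8-week rats 8.39, 8.04, 7.72, 7.45 and 7.09. There were 4 rats, replicate 3 at 1 week and replicates 1, 2 and 3 at 4 weeks, at or below 5.04, and no rat lay between 5.04 and 7.09. The highest background probe set on the arrays of these 4 rats was 6.14 to 6.37, above all 4 signals. Within groups the SD was 1.16 log2 units, larger than that of 99.8% of the named probe sets, whose median was 0.27.

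The paralogue Nr1d2, for REV-ERB beta, set the same 4 rats apart. Control signals were 7.81, 7.57, 6.57, 7.58 and 7.54, those at 1 week 7.19, 7.28, 5.36, 6.96 and 6.90, those at 4 weeks 5.75, 5.67, 5.79, 7.65 and 7.61, and those at 8 weeks 7.53, 7.21, 6.89, 7.16 and 6.60. The 4 rats held the 4 lowest values, at or below 5.79, and the next was control replicate 3 at 6.57. The within-group SD was 0.72 log2 units.

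**Figure D1:**
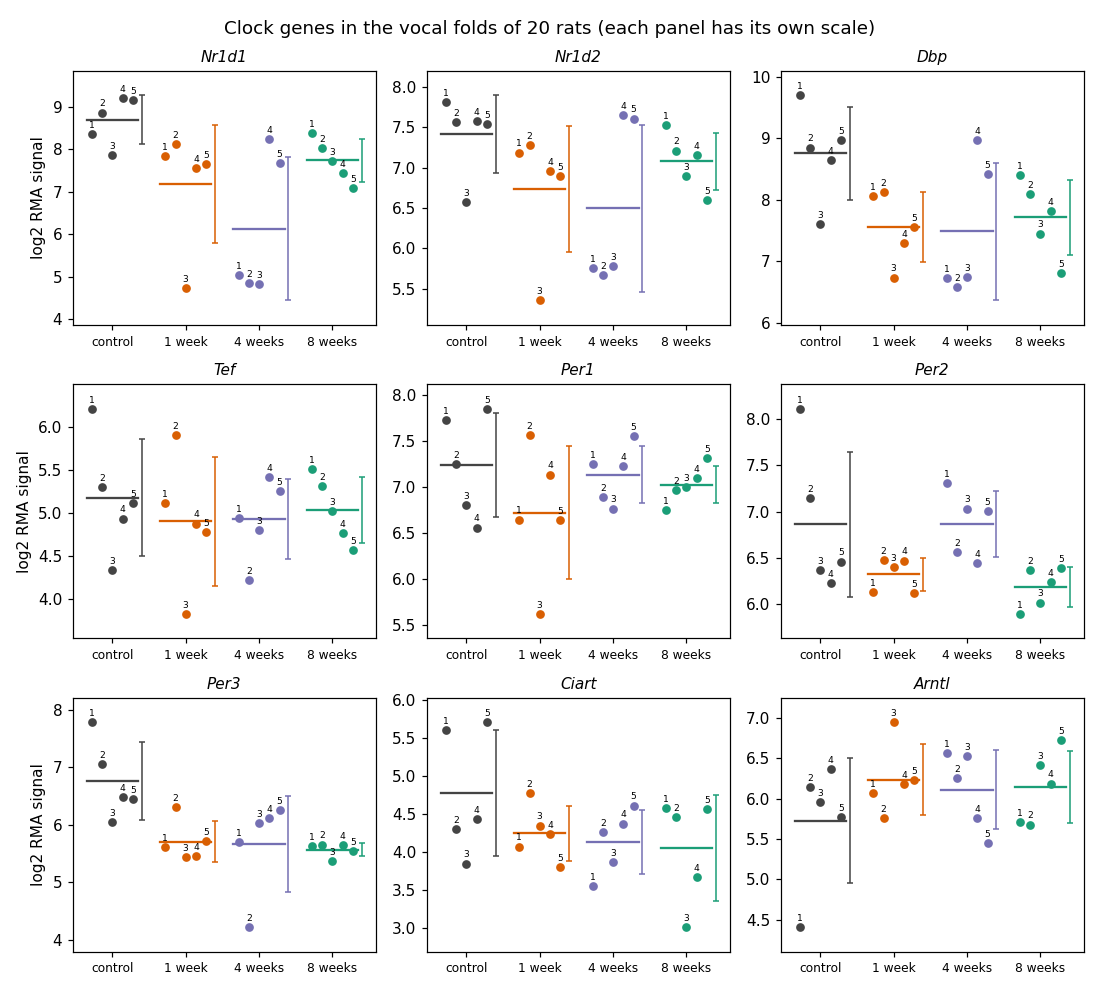
Log2 RMA signal of the 9 measured clock genes (vertical axis, each panel on its own scale) in the 5 rats of each group (horizontal axis), with the replicate number beside each point, a line at the group mean and a bar for ± 1 SD. Replicate 3 at 1 week and replicates 1, 2 and 3 at 4 weeks lie at or below 5.04 for Nr1d1, and control replicate 1 is the lowest of the 20 for Arntl at 4.41.

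Dbp, whose product activates D-box genes and which has one of the widest daily swings in rodent tissues, was 9.70, 8.85, 7.61, 8.65 and 8.96 in the controls, 8.05, 8.12, 6.74, 7.30 and 7.56 a week after injury, 6.73, 6.59, 6.74, 8.96 and 8.42 at 4 weeks and finally 8.41, 8.09, 7.45, 7.82 and 6.82 at 8 weeks. The 4 rats low in Nr1d1 again held the 4 lowest signals, but here replicate 5 at 8 weeks followed closely at 6.82. Control replicate 1 was the highest of all. Tef, its relative, was 6.21, 5.30, 4.34, 4.94 and 5.12 in the controls, 5.12, 5.91, 3.83, 4.88 and 4.78 a week after injury, 4.94, 4.22, 4.81, 5.42 and 5.26 at 4 weeks and finally 5.51, 5.32, 5.02, 4.77 and 4.57 at 8 weeks. Here only replicate 3 at 1 week and replicate 2 at 4 weeks fell below all 5 controls, and the 2 others of the 4 rats lay inside the range of the controls.

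The Period genes encode the proteins that, with the Cryptochromes, close the loop. Per3 was 7.79, 7.06, 6.05, 6.49 and 6.45 in the controls, 5.61, 6.31, 5.43, 5.46 and 5.72 a week after injury, 5.70, 4.21, 6.03, 6.12 and 6.25 at 4 weeks and finally 5.62, 5.66, 5.38, 5.65 and 5.54 at 8 weeks. The 8-week rats lay within 0.28 log2 units of each other and below every control. Per2 was 8.11, 7.15, 6.37, 6.22 and 6.46 in the controls, 6.12, 6.48, 6.40, 6.47 and 6.12 a week after injury, 7.31, 6.56, 7.03, 6.44 and 7.003 at 4 weeks and finally 5.89, 6.37, 6.01, 6.23 and 6.38 at 8 weeks. Per2 ran from 6.44 to 7.31 at 4 weeks and from 5.89 to 6.38 at 8 weeks, and the rats low in Nr1d1 were not low in it. Per1, which glucocorticoids and immediate early signals also induce, was 7.72, 7.25, 6.80, 6.56 and 7.85 in the controls, 6.64, 7.57, 5.62, 7.13 and 6.63 a week after injury, 7.25, 6.88, 6.76, 7.22 and 7.55 at 4 weeks and finally 6.75, 6.96, 6.99, 7.10 and 7.31 at 8 weeks. Only replicate 3 at 1 week, at 5.62, was below the range of the controls.

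Ciart, whose product CHRONO represses the CLOCK and BMAL1 pair in mice and whose promoter is the one above with 3 E-boxes, was 5.61, 4.30, 3.85, 4.43 and 5.70 in the controls, 4.07, 4.77, 4.35, 4.23 and 3.81 a week after injury, 3.55, 4.26, 3.87, 4.37 and 4.61 at 4 weeks and finally 4.57, 4.46, 3.01, 3.67 and 4.56 at 8 weeks. Control replicates 1 and 5 stood above the other 18 rats. Arntl, the activator that carries the ROR element, ran the other way. It was 4.41, 6.14, 5.96, 6.36 and 5.77 in the controls, 6.06, 5.76, 6.94, 6.18 and 6.23 a week after injury, 6.56, 6.25, 6.53, 5.76 and 5.45 at 4 weeks and finally 5.71, 5.68, 6.41, 6.19 and 6.72 at 8 weeks. The lowest Arntl was in control replicate 1, the rat with the highest Dbp, Tef, Per2, Per3 and Nr1d2, and the highest was in replicate 3 at 1 week, the rat with the lowest Nr1d1, Nr1d2, Tef and Per1.

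The group means of the 9 genes are given as a description, since the list was chosen on these arrays. Against control, Nr1d1 differed by -1.51 log2 units at 1 week (SE 0.63), -2.56 at 4 weeks (SE 0.63) and -0.96 at 8 weeks (SE 0.63), and the groups overlapped at each time. Dbp differed by -1.20, -1.27 and -1.04 (SE 0.43 each) and Per3 by -1.06, -1.10 and -1.20 (SE 0.32 each). Per3 at 8 weeks was the only case, among the 27 of 9 genes at 3 times, in which the injured and control rats did not overlap, whereas 7.86% of all named probe sets did not overlap in that comparison, 8.15% at 4 weeks and 12.0% at 1 week. The other means lay between -0.92 for Nr1d2 at 4 weeks and 0.51 for Arntl at 1 week.

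Several of these means moved with a few animals. Leaving out the 4 rats low in Nr1d1 takes 3 of the 5 at 4 weeks. By their choice this shrinks the Nr1d1 difference, and it also moves those of genes that vary with Nr1d1, here Nr1d2, Dbp and Arntl. Without these rats, the 4-week differences from control were -0.74 for Nr1d1, 0.22 for Nr1d2, -0.06 for Dbp and -0.12 for Arntl. At 1 week, Nr1d1 differed by -0.90 without replicate 3. Without control replicate 1, the Arntl difference fell from 0.51 to 0.18 at 1 week, from 0.38 to 0.05 at 4 weeks and from 0.41 to 0.08 at 8 weeks, and that of Per2 at 8 weeks moved from -0.68 to -0.37. Without that rat, Per3 still differed by -0.81, -0.85 and -0.94.

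To follow the genes between rats of the same group, each value was taken as its deviation from the group mean. Because the 4 rats low in Nr1d1 form a separate cluster, pairwise correlations are given over the other 16. They are descriptions without a p-value, and the genes of an array share its RNA, its tissue composition and its scan. Of the 28 pairs among the 8 genes other than Arntl, 26 were positive, with a median r of 0.52 (range -0.32 to 0.93). The exceptions were Nr1d1 with Per2, at -0.32, and Nr1d1 with Per1, at -0.07. The highest r was that of Nr1d2 with Dbp (r = 0.93, rho = 0.84). Dbp with Tef followed at 0.87 (rho = 0.86), then Tef with Per3 at 0.85 (rho = 0.63) and Per2 with Per3 at 0.84 (rho = 0.76). All 8 pairs with Arntl were negative, from -0.78 for Tef to -0.06 for Nr1d1, with a median of -0.62. These 16 rats include control replicate 1, the lowest of all in Arntl. The rho of the 8 pairs was negative too, from -0.72 for Dbp to -0.13 for Nr1d1. It was weaker than r for Tef, at -0.61, and for Per2, at -0.31 beside an r of -0.67.

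**Figure D2:**
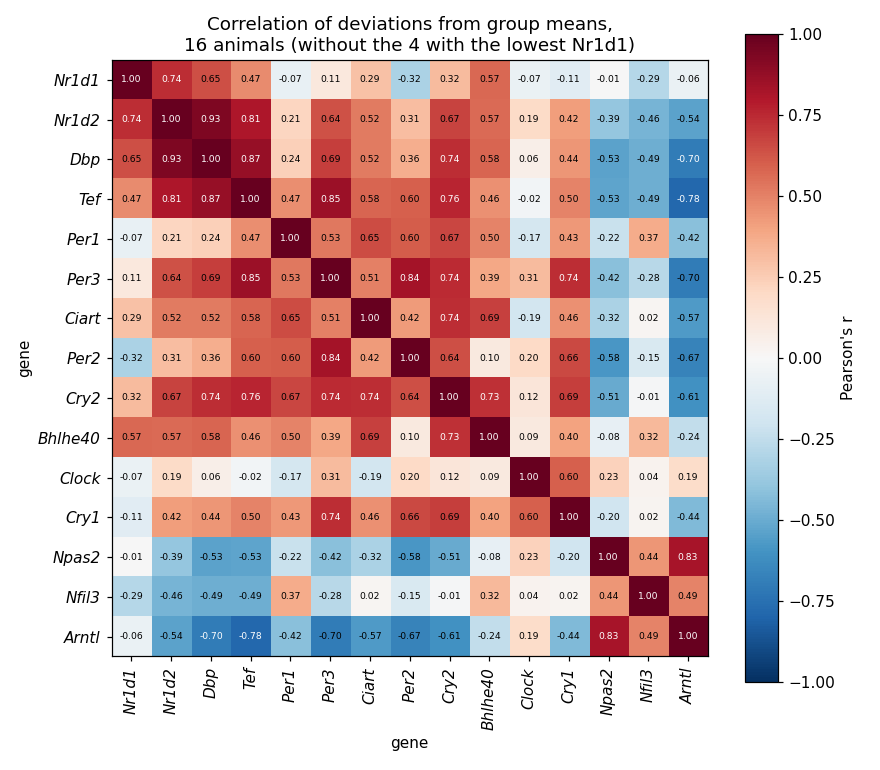
Pearson's r (colour scale and printed values) between 15 clock genes on both axes, from deviations from group means in 16 rats, without the 4 rats low in Nr1d1. Arntl and Npas2 (r = 0.83) run with each other and against Dbp, Tef and the Period genes, and Clock is near 0 with most of them.

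Over all 20 rats, Dbp and Arntl had an r of -0.77 and a rho of -0.80. Without the 2 rats farthest from the median deviation of Dbp, r was -0.83. That median is taken over the deviations from the group means, not over the signals. Tef and Arntl had an r of -0.79, a rho of -0.76 and an r of -0.67 without the 2 rats farthest for Tef. The relation of Per2 with Arntl, in contrast, rested on 2 rats. It was -0.41 over 20 rats and 0.22 without the 2 rats farthest from the median deviation of Per2.

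A clock index was formed as the mean log2 signal of the 8 measured members other than Arntl. It was 7.66, 7.04, 6.18, 6.76 and 7.16 in the controls, 6.33, 6.82, 5.31, 6.25 and 6.15 a week after injury, 5.78, 5.41, 5.73, 6.80 and 6.80 at 4 weeks and finally 6.59, 6.51, 6.06, 6.23 and 6.11 at 8 weeks. At 4 weeks the rats fell into 3 below 5.79 and 2 at 6.80, whereas the 8-week rats spanned 0.52 log2 units. Dbp minus Arntl in the same rat ranged from -0.20 in replicate 3 at 1 week to 5.29 in control replicate 1.

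**Figure D3:**
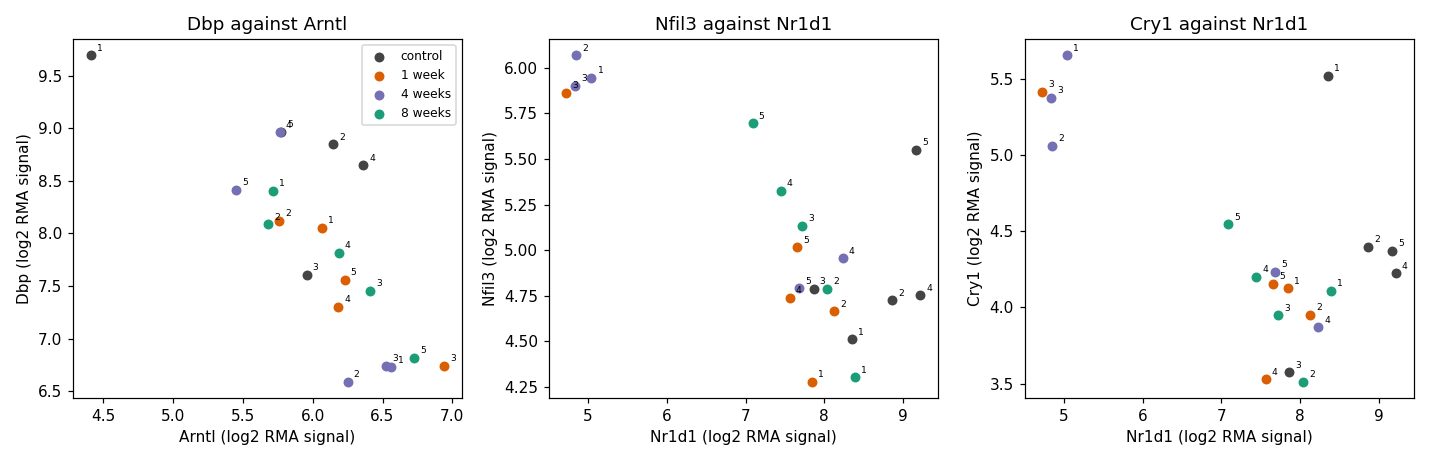
Log2 RMA signals of 2 genes per panel in 20 rats, coloured by group and marked with the replicate number, for Dbp against Arntl, Nfil3 against Nr1d1 and Cry1 against Nr1d1. Control replicate 1 lies at the upper left of the first panel (4.41 and 9.70), and the 4 rats with Nr1d1 at or below 5.04 hold Nfil3 signals from 5.86 to 6.07.

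Clock genes outside the list were tested in the fit over all probe sets. Of 18 such genes, 12 were measured, and the other 6 were not analysed here. Clock, the partner of BMAL1, was the only one that passed the threshold in any comparison, so that 1 of 12 passed at 1, 4 and 8 weeks against control, beside 21.3%, 13% and 11.6% of all named probe sets. Its control signals were 8.70, 8.92, 8.25, 8.80 and 8.38, those at 1 week 7.61, 7.34, 7.63, 7.25 and 7.87, those at 4 weeks 7.79, 7.61, 7.74, 7.63 and 8.04, and those at 8 weeks 7.77, 7.52, 7.82, 7.97 and 7.95. Every injured rat was below every control. Clock fell by 1.07 log2 units at 1 week (95% confidence interval -1.38 to -0.75, limma adjusted p = 7.3e-05), by 0.85 at 4 weeks (-1.16 to -0.53, adjusted p = 0.0013) and by 0.81 at 8 weeks (-1.12 to -0.49, adjusted p = 0.0023). The test over the 4 groups gave an adjusted p of 3e-04, with 15.4% of all named probe sets past the threshold.

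Clock separated control from injured arrays as the hybridization controls and the pituitary genes above did, and the injury and the set of arrays cannot be told apart in this design. Leaving out any 1 array kept all 3 calls, with adjusted p-values between 2.4e-05 and 0.0094. Without the 4 rats low in Nr1d1, the 4-week difference was -0.77 with an adjusted p of 0.062. Among the injured groups 0 of the 12 genes passed in limma, and 0, 0 and 1 had an unadjusted p under 0.05 for 4 weeks against 1 week, 8 weeks against 1 week and 8 against 4 weeks. Of all named probe sets 0.126%, 0.233% and 0% passed there, and 377 had an unadjusted p under 0.05 in the last.

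**Figure D4:**
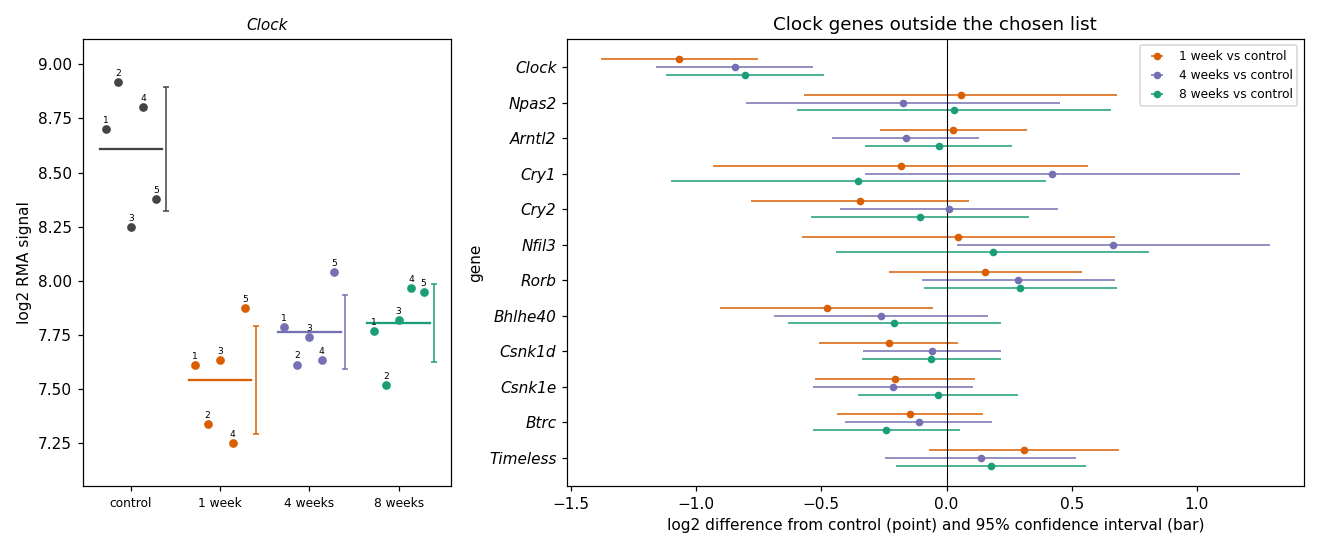
Left, log2 RMA signal of Clock in the 5 rats of each group, with group means and ± 1 SD. Right, log2 difference from control at 1, 4 and 8 weeks with its 95% confidence interval for the 12 measured clock genes outside the list. Clock lies below 0 at all 3 times, at -1.07, -0.85 and -0.81.

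Unlike the members, Clock varied little between rats of a group. Its within-group SD was 0.23 log2 units, larger than that of 25.1% of named probe sets, and its slope on the clock index, fitted with the group means, was 0.03 (95% confidence interval -0.21 to 0.28). Npas2, the relative of CLOCK, had an SD of 0.54 and moved with Arntl (r = 0.83, rho = 0.78 over 20 rats). Without the 2 rats farthest from the median deviation of Arntl, r was 0.72. The lowest Npas2 signal, 4.70, was in control replicate 1, as for Arntl. Against control Npas2 differed by 0.06, -0.18 and 0.03 log2 units, with adjusted p-values of 0.92, 0.75 and 0.97.

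Nfil3 and Cry1 were high in the same 4 rats, but below the highest background probe set on each of their arrays (6.14 to 6.37). NFIL3 is the repressor at D-boxes, and Nfil3 and Cry1 are both known targets of REV-ERB repression in mouse. Nfil3 was 5.86 in replicate 3 at 1 week and 5.94, 6.07 and 5.90 in replicates 1, 2 and 3 at 4 weeks, the 4 highest of the 20 values, and the next was 5.69 in replicate 5 at 8 weeks. Cry1, a Cryptochrome, was 5.41 in the first of these rats and 5.65, 5.06 and 5.38 in the other 3, and control replicate 1 stood beside them at 5.52 while the remaining 15 rats were at or below 4.54. In the 16 other rats Nr1d1 had an r of -0.29 with Nfil3 and -0.11 with Cry1. Leaving out the lowest Nr1d1 values narrows the range of that gene. Over the same 16 rats Nfil3 had an r of -0.46 with Nr1d2 and -0.49 with Dbp. Cry1 had an r of 0.42 with Nr1d2 and 0.44 with Dbp there, but a rho of only 0.12 and 0.20. Over all 20 rats its r was -0.55 with Nr1d2 and -0.33 with Dbp. Neither Nfil3 nor Cry1 passed the threshold between groups. Nfil3 differed by 0.67 at 4 weeks (adjusted p = 0.15) and Cry1 by 0.42 (95% confidence interval -0.33 to 1.17).

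The slope on the clock index was also tested over the 15040 named probe sets that are not members. None passed (0%), and 1461 had an unadjusted p under 0.05. Of the 12 other clock genes, 4 had one, namely Nfil3 (slope -0.73, adjusted p = 0.3), Npas2 (-0.55, adjusted p = 0.4), Cry2 (0.44, adjusted p = 0.4) and Bhlhe40 (0.38, adjusted p = 0.4). Cry2 encodes the other Cryptochrome and Bhlhe40 a repressor of E-box genes. Over 20 rats, Cry2 moved with Per3 (r = 0.79, rho = 0.52) and Bhlhe40 with Ciart (r = 0.72, rho = 0.69). Without the 2 rats farthest from the median deviation, of Per3 or of Ciart in turn, r was 0.56 and 0.65.

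The 8 named genes most like the index, by r over 20 rats, were Pim3 (0.83), Sh3bp5l (0.82), Ghrhr (0.82), Lifr (0.82), Tas2r140 (0.81), Fam53b (0.81), Tmigd1 (0.80) and Fgf2 (0.79). Lifr averaged 7.26 log2 units. The others averaged from 1.79 for Tas2r140 to 6.73 for Fgf2, below the highest background signal of 7.14, with Ghrhr at 3.71 and Tmigd1 at 4.04. Pim3 is a serine and threonine kinase, Lifr the receptor of leukemia inhibitory factor and Fgf2 a fibroblast growth factor. Lifr was 8.12 in control replicate 1 and 6.02 in replicate 3 at 1 week. In replicates 1, 2 and 3 at 4 weeks it was 7.14, 6.26 and 7.05, beside a group mean of 7.09. The 8 most opposed were Psmd8 (-0.72), Nfil3 (-0.70), Pcdh19 (-0.70), Rexo5 (-0.69), Angptl4 (-0.69), Ahrr (-0.68), Lrrc15 (-0.68) and Naa20 (-0.68). Their means, from 4.12 for Rexo5 to 6.39 for Psmd8, were below that background signal too. Angptl4, a secreted inhibitor of lipoprotein lipase, was 6.61, 7.09 and 6.03 in the 3 low rats at 4 weeks and 4.89 and 4.75 in the other 2 of that group. In replicate 3 at 1 week, also a low rat, it was 5.03, beside a group mean of 4.77. Arntl itself had an r of -0.79 with the index, but both come from the list chosen on these arrays, so no rank is given for it. None of these 16 slopes passed the threshold, with adjusted p-values from 0.16 to 0.4.

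Skeletal muscle markers moved with the index. The mean of 6 of them ranged from 7.39 in replicate 3 at 8 weeks to 10.79 in control replicate 5, and was 8.82 in control replicate 3. Its r with the index within groups was 0.49, and with Ciart, the closest member, 0.65. The median slope of the 6 muscle genes on the index was 0.71, against 0.06 over all genes tested, and 5 of 6 had an unadjusted p under 0.05 while 0 passed in limma. The part of muscle content in the index was not tested. With the muscle mean as a covariate, Clock differed from control by -1.08, adjusted p = 6.8e-05, at 1 week.

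A list of 14 genes with known daily rhythms in many tissues held 4 that passed at 1 week, 2 at 4 weeks and 2 at 8 weeks, all lower than control. Among all named probe sets 21.3%, 13% and 11.6% passed at these times, so the shares at 4 and 8 weeks were near those of all genes. The median difference of the 14 was -0.34, -0.02 and -0.23 log2 units, beside 0.02, 0.04 and 0.04 over all genes. Alas1, the first enzyme of heme synthesis, passed at all 3 times, with -1.28 at 1 week (adjusted p = 7e-04), -1.22 at 4 weeks (adjusted p = 0.002) and -1.21 at 8 weeks (adjusted p = 0.0025). Its controls spanned 8.30 to 9.52 and its injured rats 6.98 to 8.30, with replicate 5 at 4 weeks at 8.297 and control replicate 3 at 8.304. Without the 4 rats low in Nr1d1 the 4-week difference of Alas1 was -0.93, with an adjusted p of 0.088 and 2 rats left. Wee1, a kinase that holds back mitosis and a target of the clock in mouse liver, passed at 1 week only (-1.06, adjusted p = 0.0033), as did Fmo2, a flavin monooxygenase (-1.23, adjusted p = 0.013), and the differences between times were not called. Without control replicates 1 and 3 Fmo2 differed by -1.01 at 1 week, with an adjusted p of 0.055. Por, the electron donor of cytochromes P450, passed at 4 and 8 weeks (-0.70 and -0.64) and Nampt, the enzyme that makes NAD from nicotinamide, at 1 week (-0.51), but 3, 13 and 15 of the 20 fits that leave out 1 array lost these calls. Usp2, a ubiquitin protease, had the steepest slope on the index in this list, 0.79 (SE 0.16, adjusted p = 0.26).

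Immediate early and glucocorticoid-induced genes were read beside Per1 and Per2, which such signals can raise. Of 8 immediate early genes, 2 were lower at 1 week and 1 was higher at 4 and at 8 weeks, shares near those of all genes. Dusp1, a phosphatase of MAP kinases, fell by 1.20 log2 units at 1 week (adjusted p = 0.0028) and kept its call without any 1 array. Egr1 (-0.92 at 1 week, adjusted p = 0.037) and Junb (0.82 at 4 weeks, adjusted p = 0.049, and 0.96 at 8 weeks, adjusted p = 0.025) lost theirs in 7, 15 and 5 of the 20 such fits. Of 7 glucocorticoid-induced genes other than Per1, 1 was called at 1 week, 1 at 4 weeks and 0 at 8 weeks. Among all named probe sets 21.3%, 13% and 11.6% were called at these times. Zbtb16 was lower at 1 week (-0.72, limma adjusted p = 0.037) and Mt2A higher at 4 weeks (1.20, adjusted p = 0.018). Their calls were lost in 6 and 3 of the 20 fits. None of these genes passed for the slope on the index.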

How the data were processed

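RNA from the vocal folds of 20 rats was measured on Affymetrix rat arrays, Clariom S by the methods and Clariom D by the labels. The authors deposited log2 RMA signals, background-corrected and summarised per probe set, with global scaling by the methods, and no detection calls or probe-level values were used here. Names came from the platform annotation, updated through RefSeq synonyms, and the probe set with the highest mean stood for a gene. The members and lists were chosen with earlier results of these data known. Group differences and slopes came from limma 3.58.1 (R 4.3.3, lmFit and eBayes), all 20 arrays entering 1 fit, adjusted by Benjamini-Hochberg over 15049 probe sets, or 15040 for slopes, at 0.05. The index was planned over 9 genes other than Arntl, of which 8 were measured. Named are all measured members, 9 fixed clock genes and any other past the threshold, up to 4 rhythmic, 3 immediate early and 3 glucocorticoid genes ranked by adjusted p, and the 8 genes most and least like the index. Nampt, Usp2 and Bhlha15 were added after their values were seen. The fits for the 1-week difference from control and for the slope were tested on simulated data. Alternatives covered normalization, array weights, spread, filters, blocks, covariates, other indices and leaving out arrays. The number of arrays limits the precision. Figures were drawn with matplotlib 3.10.9 in Python 3.11.15.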

Additional observations from a re-analysis of the deposited data

Results flagged for a closer look

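In 6 of 88 groups of 5 rats, over the 9 members, the 12 other clock genes and the index, 1 rat stood apart from the other 4 by more than 0.71 of the group's range. The cut-off is set so that about 1 group in 20 passes it by chance. The members were chosen on these arrays and the genes of an array are not independent. The flags are therefore a description, and no excess over chance is read from them. Replicate 3 at 1 week was flagged for Nr1d1, at 4.73 against 7.56 for the next rat, and for Nr1d2, at 5.36 against 6.90. Control replicate 3 was low for Nr1d2, at 6.57 against 7.54. Replicate 2 at 4 weeks was low for Per3, at 4.21 against 5.71. Control replicate 5 was high for Nfil3, at 5.55 against 4.79. Replicate 1 at 4 weeks was high for Csnk1d, a kinase of PERIOD proteins, at 8.44 against 8.08.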

How the results depend on the processing

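Over the alternatives run, no called difference of the genes named changed sign, and Clock kept its calls except where given here. At 1 week the count of other clock genes called, 1 in the fit reported, was 3 with array weights (Clock, Bhlhe40 and Csnk1d) and 2 (Clock and Bhlhe40) without control replicates 1 and 3, without control replicate 3 alone, or with the muscle covariate, and ranged from 1 to 2 when single arrays were left out. It was 0 at 4 and 8 weeks where a log2 difference of at least 1 was required, and 0 at 4 weeks without the 4 rats low in Nr1d1. The difference of the index from control was -0.79, -0.86 and -0.66 at 1, 4 and 8 weeks. With Dbp minus Arntl in its place it was -1.70, -1.65 and -1.45, and without the 4 rats it was -0.16 at 4 weeks. Leaving out single arrays gave -0.98 to -0.57, -1.05 to -0.68 and -0.86 to -0.49. For the slope on the index, 2 probe sets were called with the hybridization controls as a covariate (Tas2r140 and Nfil3, the latter at -0.93 with an adjusted p of 0.03, the 1 other clock gene called) and 2 with an index without Nr1d1 and Nr1d2 (Pim3 and Bhlha15), against 0.

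All named probe sets called against control numbered 3209, 1952 and 1748 at 1, 4 and 8 weeks, 5214, 3383 and 3619 with array weights, and 433, 292 and 249 at a log2 difference of at least 1. They were 956 at 4 weeks and 1110 at 8 weeks where only the groups compared were fitted, 365 at 4 weeks without the 4 rats, and 5583, 3443 and 3019 over all probe sets other than controls. Without single arrays they fell to 1267 at 4 weeks and 1109 at 8 weeks at the lowest. Same-numbered arrays did not deviate together as a set (median r -0.05 over 30 pairs, 0.01 over 120 other pairs). This gave no sign that the numbers pair the rats. It cannot exclude pairing, since single same-numbered pairs ranged from -0.27 to 0.32 and other pairs from -0.36 to 0.38. With the replicate block 1 other clock gene was called at each time against control, Clock, with adjusted p-values of 0.00034, 0.0036 and 0.0055, and Nampt at 1 week and Por at 8 weeks lost their calls, with adjusted p-values of 0.051 and 0.053. Dim signals near background limit Ciart, Tef, Cry1, Nfil3 and Tas2r140. The alternatives without the 4 rats, without the 2 controls, over all probe sets, with the muscle covariate and with the shorter index were chosen after seeing the data.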
